A study of Mus musculus with 79 samples.

Results

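Mitochondrial ribosomal protein genes were followed in quadriceps muscle of mice from the BXD family, inbred strains descended from the parental strains C57BL/6J and DBA/2J. The genes were chosen by name: every symbol made of Mrpl (large subunit) or Mrps (small subunit), a number and at most 1 further letter. This gave 74 genes of the 22335 gene symbols on the array, 45 of the large and 29 of the small subunit, each read by its probeset with the highest mean. Both groups were male mice of the same strains: one stayed on a chow diet (CD) and the other took a high fat diet (HFD) from 8 weeks of age, and all were fasted overnight and sacrificed at 29 weeks. Each of the 79 arrays (42 CD, 37 HFD) carried RNA pooled over the mice of a strain within a diet, which leaves the spread between single mice unknown. There were 40 BXD strains and both parental strains, and 37 strains had an array on each diet. The sample labels place the arrays in 2 dated batches. Batch 1 held 18 arrays on CD and 17 on HFD, while batch 2 held 24 on CD and 20 on HFD.

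Mitochondria carry their own ribosomes, which translate the few proteins that mitochondrial DNA encodes, all of them subunits of the respiratory chain and ATP synthase. The ribosomal RNAs come from mitochondrial DNA, while every protein of both subunits is encoded in the nucleus, made in the cytosol and imported. Muscle has a high demand for respiratory chain complexes, and in worms lowering mitochondrial ribosomal proteins is known to lengthen lifespan. Some members have bacterial counterparts, and others are found only in mitochondria. Mrps36 has since been assigned to the 2-oxoglutarate dehydrogenase complex, and the products of Mrps30 and Mrps18a sit in the large subunit despite their names. Subunits are given here by symbol.

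Expression is given as the deposited score, a log-type value scaled array by array so that the 35556 probesets average 8.0 with an SD of 2.0. A difference of 1 unit is therefore the SD of an array's probesets divided by 2.0, and is not known to be a doubling. The tissue label was checked against its markers: all 8 skeletal muscle genes (Acta1, Ckm, Mb, Ttn, Des, Myh4, Actn3, Tnnt3) lay at percentiles 99.57 to 99.885 of the probesets, with means of 14.03 (Des) to 15.17 (Acta1) within a diet. Of these Mb rose on HFD (0.130 units, limma adjusted p 0.00892) and the others were not called.

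Some markers of other cells were called between diets, and others were not. Over all probesets 38.1% were called. Of 8 adipocyte genes Lep, Cidec, Adipoq, Plin1, Fabp4 and Pparg rose (0.260 to 1.582 units), Cfd changed by -0.608 units and Retn was not called. The mean of that list ran from 9.27 to 10.78 over CD arrays and from 9.42 to 11.24 over HFD arrays. Of 6 measured macrophage genes Cd68, Emr1, Mrc1 and Csf1r rose, while Cd163 and Lyz2 were not called (list mean 8.39 to 9.20 in CD and 8.51 to 9.56 in HFD). Of 5 endothelial genes Pecam1, Cdh5 and Kdr rose, while Tek and Tie1 were not called (9.63 to 10.38 and 9.91 to 10.46). None of the 4 fibroblast genes Pdgfra, Col1a1, Col1a2 and Dcn was called (10.53 to 11.09 and 10.50 to 11.11). Of 8 slow fibre genes Tpm3 rose, while Myh7, Tnnt1, Tnni1, Tnnc1, Myl2, Myl3 and Atp2a2 were not called (8.74 to 11.13 and 8.59 to 10.93). The part of these shifts in the results below was not tested. In pooled tissue, fewer cells of a type and less RNA per cell cannot be told apart. Results are also given without strain BXD63, which was singled out in an earlier look at these data. Over all probesets its arrays lay within the range of the others, with a median r with the other arrays of the same diet of 0.985 in CD (range 0.983 to 0.988) and 0.984 in HFD (range 0.977 to 0.989).

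The stretch just before the first exon is where nuclear factors that tune mitochondrial genes, such as NRF1, the ETS factor GABP and YY1, are known to bind. The RefSeq promoter table (build GRCm38.p6, 250 bases before to 50 bases after each start) held 71 windows for 65 of the 74 members. The NRF1 core TGCGCA, which reads the same on both strands, was present in 20 of these 71 windows (28.17%) and in 7.76% of all 32851 windows. The ETS core CCGGAAG or its complement CTTCCGG was present in 22 (30.99%, against 8.86% of all windows). The YY1 core AAGATGG or CCATCTT was present in 13 (18.31%, against 6.34%). At least 1 of the 3 cores was present in 41 of the 71 windows (57.75%), against 20.44% of all. The share was higher in small than in large subunit windows for each core: 37.04% and 22.73% for NRF1, 40.74% and 25% (11 of 44 windows) for ETS, and 22.22% and 15.91% for YY1; these differences were not tested. A match describes the letters of a window and is not evidence of binding.

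Windows are shown for 5 members on which the results below turn, 5′ to 3′ on the strand of the gene, with the matched cores in capitals. Mrpl50 (chr4:49521034-49521333, minus strand) had the largest rise on HFD, Mrpl45 (chr11:97315466-97315765, plus strand) the next largest, and Mrpl52 (chr14:54426659-54426958, plus strand) was lower on HFD. Mrps7 (chr11:115603890-115604189, plus strand) followed the other members closely from array to array, and Mrpl35 (chr6:71823735-71824034, minus strand) had the largest strain difference.
Mrpl50: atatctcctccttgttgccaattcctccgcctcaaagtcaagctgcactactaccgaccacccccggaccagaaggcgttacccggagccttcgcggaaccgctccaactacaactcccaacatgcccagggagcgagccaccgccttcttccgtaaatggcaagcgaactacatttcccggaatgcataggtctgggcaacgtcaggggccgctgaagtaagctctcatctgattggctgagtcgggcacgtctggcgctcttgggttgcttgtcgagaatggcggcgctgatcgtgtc
Mrpl45: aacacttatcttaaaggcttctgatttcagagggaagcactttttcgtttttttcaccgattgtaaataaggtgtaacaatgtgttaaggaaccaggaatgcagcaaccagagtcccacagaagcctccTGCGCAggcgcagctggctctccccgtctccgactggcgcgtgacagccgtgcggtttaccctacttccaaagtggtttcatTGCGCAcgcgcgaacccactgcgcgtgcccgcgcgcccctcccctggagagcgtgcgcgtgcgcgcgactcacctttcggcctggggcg
Mrpl52: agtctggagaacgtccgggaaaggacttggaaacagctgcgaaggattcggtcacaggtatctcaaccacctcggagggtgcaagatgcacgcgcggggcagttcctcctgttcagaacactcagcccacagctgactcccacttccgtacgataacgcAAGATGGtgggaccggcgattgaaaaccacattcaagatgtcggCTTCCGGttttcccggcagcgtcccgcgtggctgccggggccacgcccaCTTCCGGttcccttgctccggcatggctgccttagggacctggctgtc
Mrps7: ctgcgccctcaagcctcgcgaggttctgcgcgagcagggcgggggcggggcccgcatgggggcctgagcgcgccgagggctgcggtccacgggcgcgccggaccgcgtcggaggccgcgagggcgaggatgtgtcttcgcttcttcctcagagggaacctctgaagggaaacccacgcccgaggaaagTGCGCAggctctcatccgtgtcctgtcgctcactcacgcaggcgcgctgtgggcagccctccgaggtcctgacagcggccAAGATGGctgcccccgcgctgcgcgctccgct
Mrpl35: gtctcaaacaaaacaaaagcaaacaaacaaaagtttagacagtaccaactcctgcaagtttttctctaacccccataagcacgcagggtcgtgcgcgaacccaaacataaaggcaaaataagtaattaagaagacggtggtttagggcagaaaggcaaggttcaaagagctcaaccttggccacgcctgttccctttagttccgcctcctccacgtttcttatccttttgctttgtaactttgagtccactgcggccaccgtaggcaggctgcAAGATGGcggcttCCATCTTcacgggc
The Mrpl45 window held 2 NRF1 cores, the Mrpl52 window 1 YY1 and 2 ETS cores, the Mrps7 window 1 NRF1 and 1 YY1 core and the Mrpl35 window 2 YY1 cores, while none of these letters were found in the Mrpl50 window.

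The first comparison asked how the members differed between diets. With limma, 24 of 74 members were called at an adjusted p below 0.05, or 32.4%, beside 38.1% of all 35556 probesets. Of these, 16 were higher on HFD (21.6% of members, background 18.9%) and 8 were lower (10.8%, background 19.3%). The probesets whose mean lay in the range of the members were called in 30.94% of cases, so the members were called about as often as other probesets of their level. Brighter probesets also leaned upward. With probesets below the median mean left out, 3046 of 17778 were higher and 2246 lower, so 57.6% of calls were rises. Of the members, 15 were then higher and 7 lower, so 68.2% of calls were rises. The median difference over the 74 members was 0.018 units, and over all probesets -0.001 units. Members moved both ways in both subunits: 10 of the large subunit genes rose and 6 fell, while 6 of the small subunit genes rose and 2 fell. The split of calls depended on how arrays were scaled. With arrays centred on their medians, 20 members were higher and 3 lower, and after quantile normalizing again, 13 were higher and 14 lower. Over all probesets, centring gave 8199 higher and 5758 lower, and the quantile step 6502 higher and 6786 lower. Centring moved the median of all probesets to 0.016 and that of the members to 0.035, and the quantile step moved them to -0.002 and 0.004. All 24 called members kept their direction under every alternative that was run, while 11 members close to 0, none of them called, changed sign under at least 1 of the scalings.

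**Figure D1:**
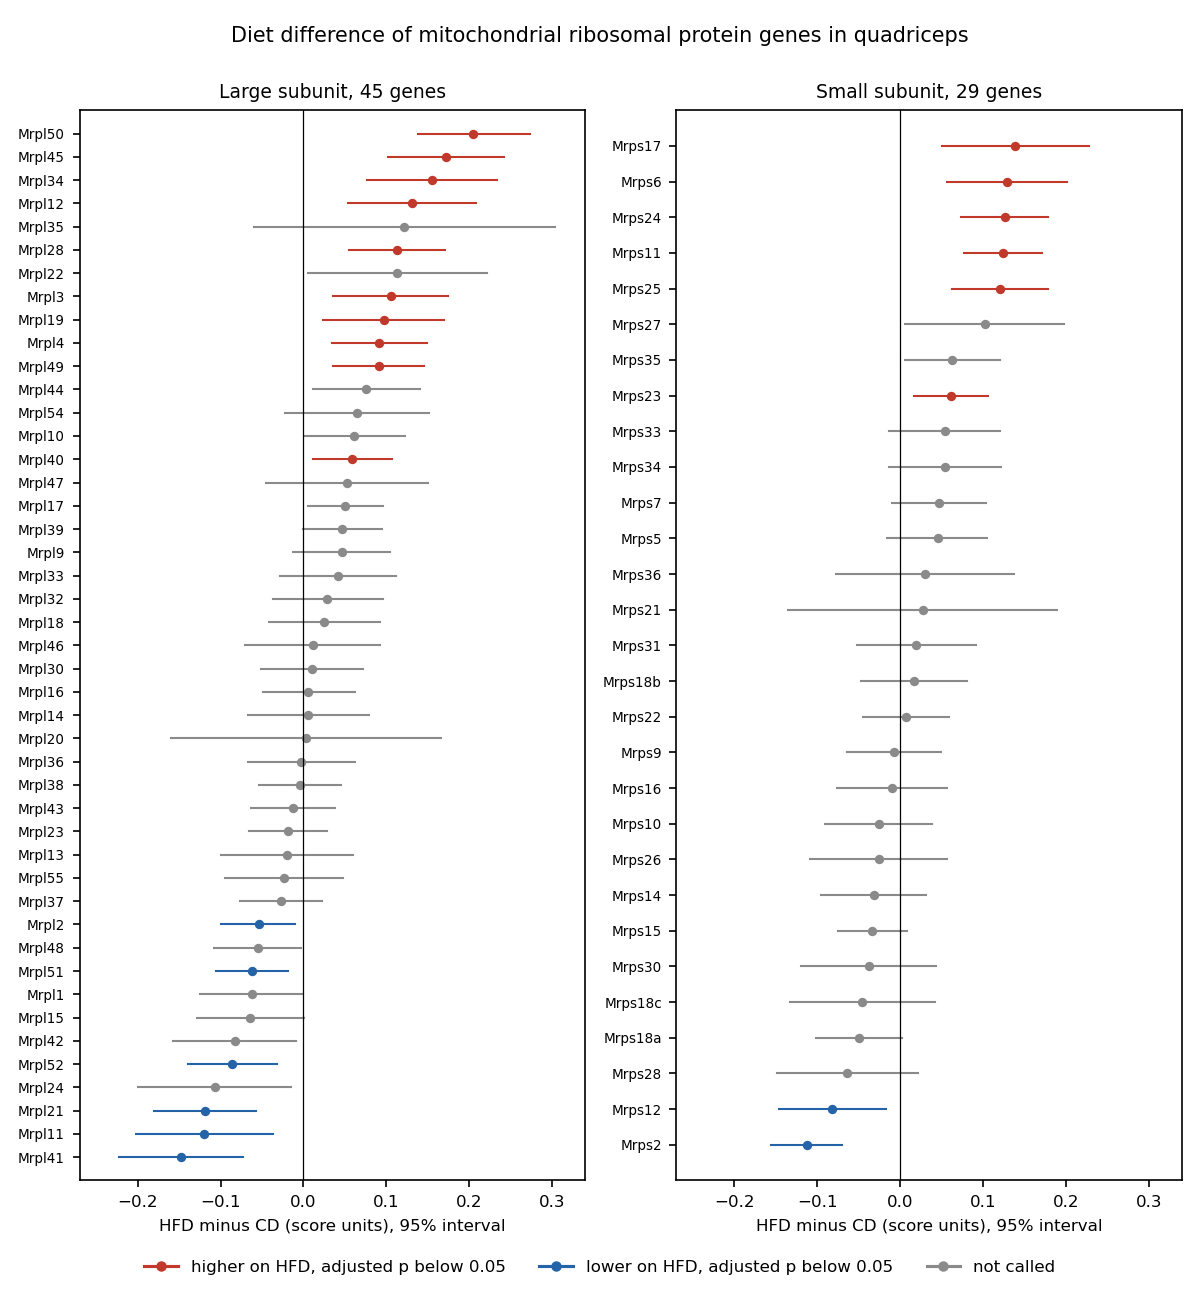
Difference between HFD and CD (score units, x axis) for each of the 74 genes, large subunit left and small subunit right, with the 95% interval from limma. Coloured points passed the test. Calls lie on both sides of 0 in both subunits, from -0.148 (Mrpl41) to 0.205 (Mrpl50).

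Among the genes that rose, Mrpl50 encodes a large subunit protein found only in mitochondria. Its score ran from 9.77 to 10.33 (median 10.05) on the CD arrays and from 9.96 to 10.69 (median 10.26) on the HFD arrays. The ranges overlapped, but the HFD median lay in the upper part of the CD range. The difference was 0.205 units (SE 0.034, limma adjusted p 8.14e-07), and Mrpl50 was higher on HFD in 33 of 37 strains. Mrpl45, whose product lies at the exit of the peptide tunnel and holds the ribosome to the inner membrane, had medians of 9.79 (9.37 to 10.10) in CD and 9.95 (9.57 to 10.32) in HFD. It rose by 0.172 units (SE 0.035, limma adjusted p 4.99e-05), in 31 of 37 strains. Both genes were also called in each batch alone.

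Mrps11, the counterpart of a bacterial small subunit protein, was likewise called in each batch. Its median was 8.89 (8.65 to 9.13) in CD and 9.01 (8.78 to 9.23) in HFD, and it rose by 0.124 units (SE 0.024, limma adjusted p 1.59e-05). It was higher on HFD in 34 of 37 strains, the most consistent direction of the 8 largest rises. Mrpl34, the counterpart of a very short bacterial protein, had medians of 10.93 (10.68 to 11.39) and 11.10 (10.80 to 11.55) and rose by 0.155 units (SE 0.039, limma adjusted p 0.000904). Mrpl12, a protein of the stalk that recruits translation factors, had medians of 10.38 (10.05 to 10.70) and 10.53 (9.98 to 10.91) and rose by 0.131 units (SE 0.039, limma adjusted p 0.0049) in 31 of 37 strains. In each of these genes the ranges of the diets overlapped over most of their length.

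The other large rises were in the small subunit. Mrps24 ran from 10.11 to 10.77 (median 10.46) in CD and from 10.28 to 10.72 (median 10.60) in HFD and rose by 0.126 units (SE 0.026, limma adjusted p 7.05e-05). Mrps6 had medians of 10.02 (9.78 to 10.41) and 10.15 (9.68 to 10.47) and rose by 0.129 units (SE 0.036, limma adjusted p 0.003). Mrps17 had medians of 8.02 (7.55 to 8.29) and 8.10 (7.768 to 8.603) and rose by 0.139 units (SE 0.044, limma adjusted p 0.00916). Although its rise was among the largest, Mrps17 was higher on HFD in only 22 of 37 strains. Mrps17 and Mrps6 were not called in either batch alone, where the adjusted p was 0.125 and 0.0954 in batch 1 and 0.114 and 0.0607 in batch 2. The remaining 8 rises, from 0.059 units (Mrpl40) to 0.120 units (Mrps25), were those of Mrps25, Mrpl28, Mrpl3, Mrpl19, Mrpl4, Mrpl49, Mrps23 and Mrpl40. Mrpl40 (adjusted p 0.046) was no longer called without BXD63 (adjusted p 0.0546) and had adjusted p-values of 0.0108 to 0.407 over the alternatives. After quantile normalizing again, Mrpl19 (limma adjusted p 0.0681), Mrps23 (0.122) and Mrpl40 (0.132) were not called.

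Of the genes that fell, Mrps2, the counterpart of a bacterial small subunit protein, had the smallest p. It ran from 9.99 to 10.34 (median 10.13) in CD and from 9.86 to 10.26 (median 10.04) in HFD. The difference was -0.113 units (SE 0.022, limma adjusted p 1.45e-05), with a higher score on HFD in only 6 of 37 strains. Mrpl21, another protein with a bacterial counterpart, had medians of 8.99 (8.62 to 9.31) and 8.89 (8.58 to 9.11), and the fitted HFD minus CD was -0.119 units (SE 0.031, limma adjusted p 0.00139). Mrpl11, at the base of the stalk, had medians of 9.78 (9.43 to 10.18) and 9.63 (9.11 to 10.01), and the fitted HFD minus CD was -0.120 units (SE 0.041, limma adjusted p 0.0165). Overlap between diets was large in each, and Mrpl21 and Mrpl11 were higher on HFD in 10 and 11 of 37 strains.

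Mrpl41, which is found only in mitochondria, had the largest fall by its representative probeset, with medians of 8.42 (8.00 to 8.82) and 8.33 (7.95 to 8.54) and HFD minus CD at -0.148 units (SE 0.037, limma adjusted p 0.00101). Its other probeset differed by 0.105 units in the other direction (limma adjusted p 0.131), and with the mean of both probesets Mrpl41 was not called. The probeset number of the representative lay among those of the gene's chromosome 2 (10 of 10 numbered neighbours), while that of the other lay among those of chromosome 7 (9 of 10 neighbours, and 0 of 10 on chromosome 2). Mrpl52 changed by -0.086 units (SE 0.027, limma adjusted p 0.00813), from a CD median of 10.13 (9.94 to 10.37) to 10.06 (9.78 to 10.49). Mrpl51 changed by -0.062 units (limma adjusted p 0.0195), but its other probeset was not called (-0.039 units, limma adjusted p 0.403). Mrps12, a protein of the decoding centre, changed by -0.082 units (limma adjusted p 0.0375), and Mrpl2, of the peptidyl transferase centre, by -0.054 units (limma adjusted p 0.0455). With strain as a replicate block these last 2 were not called (limma adjusted p 0.119 and 0.0733; over the alternatives 0.0226 to 0.341 and 0.00643 to 0.305). After median centring the differences of all 8 stayed below 0, but only Mrpl41, Mrpl21 and Mrps2 were still called (Mrpl11 was at -0.103, Mrpl52 at -0.069 and Mrps12 at -0.065 units). In batch 1 alone none of the 8 was called, with differences close to those over all arrays (-0.113 for Mrps2, -0.118 for Mrpl21 and -0.116 units for Mrpl11).

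**Figure D2:**
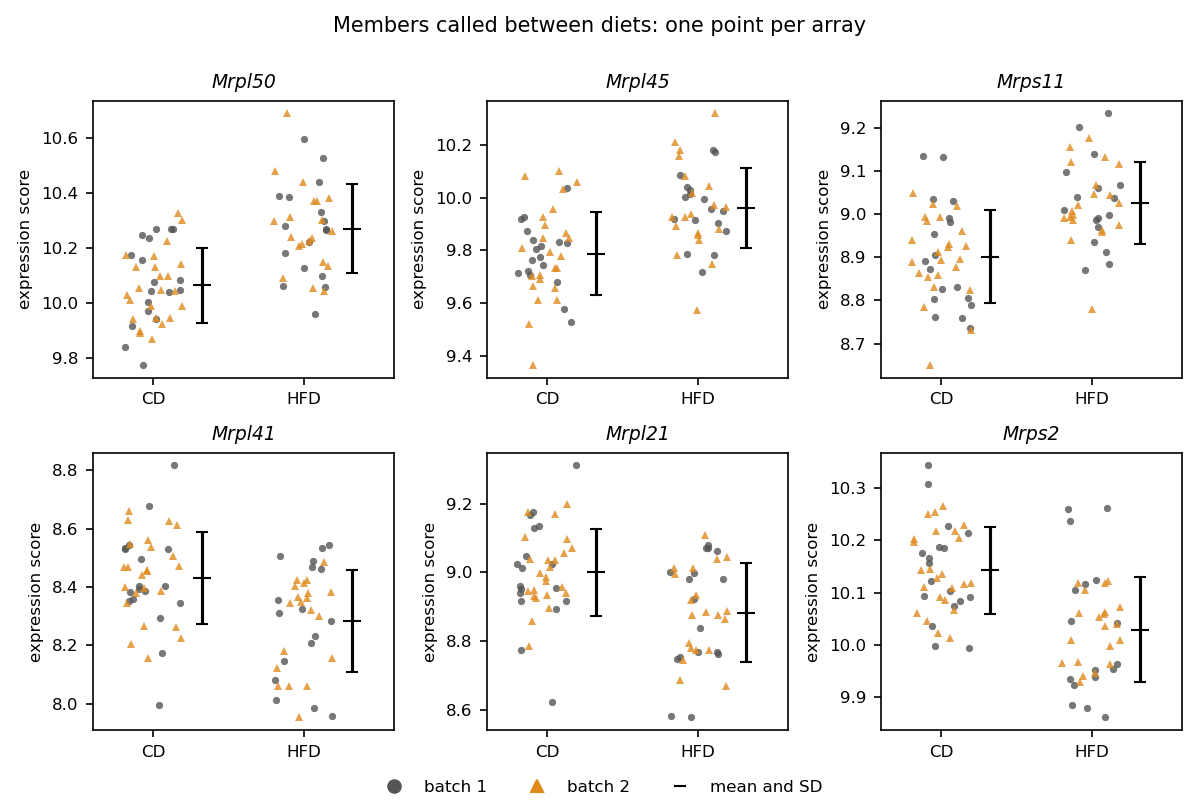
Expression score (y axis) of 6 called genes on each array by diet, circles for batch 1 and triangles for batch 2, with the mean and SD beside the points. Mrpl50, Mrpl45 and Mrps11 are higher and Mrpl41, Mrpl21 and Mrps2 lower on HFD, with overlapping ranges in all 6.

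The 50 members that were not called had differences from -0.107 (Mrpl24) to 0.121 (Mrpl35). Both genes were also called for strain differences, below. With strain as a replicate block over the 37 paired strains, 29 members were called (39.2%, beside 40.6% of all probesets), 22 of them shared with the 24. The 7 gained were Mrpl1, Mrpl15, Mrpl22, Mrpl24, Mrpl35, Mrpl44 and Mrpl54. Mrpl24 was then lower by 0.111 units (difference -0.111, limma adjusted p 0.00699), and Mrpl35 was higher by 0.065 units (limma adjusted p 0.0432). Over the 45 large subunit genes the block called 22 in place of 16, and over the 29 small subunit genes 7 in place of 8. Without BXD63, 26 members were called (35.1%, beside 39.6% of all probesets), of which 23 were shared.

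Promoter cores were set beside the calls as a description. The NRF1 core was present for 5 of 14 genes with a window that rose, 1 of 8 that fell and 13 of 43 that were not called. The ETS core was present for 3 of 14, 4 of 8 and 15 of 43, and the YY1 core for 3 of 14, 2 of 8 and 8 of 43. No comparison between these groups was tested.

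The genes around the mitochondrial ribosome were counted from lists of known factors. Of 8 measured ribosomal proteins that carry other names, 1 rose: Ptcd3, an RNA-binding protein of the small subunit (0.154 units, SE 0.054, limma adjusted p 0.0178). Of 14 translation factors, 2 rose and 2 fell. The elongation factor gene Guf1 rose by 0.137 units and Taco1, an activator of Cox1 translation, by 0.093 units, while the initiation factor gene Mtif2 changed by -0.137 and Mtfmt, which formylates the initiator tRNA, by -0.129 units (limma adjusted p 0.00059 to 0.0334 over the 4). Of 22 mitochondrial aminoacyl-tRNA synthetases and related amidotransferase genes, 7 rose and 1 fell, led by Pars2 (0.178 units, limma adjusted p 4.75e-05), Yars2 (0.157 units, 0.000252) and Qrsl1 (0.109 units, 0.00061). The 1 that fell was Pet112l (-0.126 units, 0.00216), which, like Qrsl1, encodes a part of the glutamyl-tRNA amidotransferase. The synthetases were thus called in 36.4% of cases, beside 38.1% of all probesets. The share was 28.6% for the translation factors and 12.5% for the ribosomal proteins that carry other names.

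Among 22 factors of ribosome assembly and rRNA modification, 4 rose and 1 fell. Rpusd4, a pseudouridine synthase, rose by 0.148 units (limma adjusted p 0.000233), Fastkd2 by 0.130 units (0.00835) and the methyltransferase gene Ftsj2 by 0.090 units (0.0229), and the helicase gene Ddx28 changed by -0.165 units (6.56e-05). Among 15 genes of mitochondrial DNA transcription and replication, 1 rose (Ppargc1b, a coactivator of mitochondrial genes, 0.139 units, 0.00517) and 1 fell (Peo1, the mitochondrial helicase, -0.081 units, 0.00973). The respiratory chain list had 23 genes higher and 4 lower of 80, with a median difference of 0.049 units. This list was called in 33.75% of cases, beside 38.1% of all probesets and 35.32% of gene symbols above the median mean. It was led by Cox8a (0.195), Ndufa3 (0.160) and Cox6a1 (0.160), and by Cox8c (-0.287), Cox7b2 (-0.275) and Atp5o (-0.106) among the falls. The cytosolic ribosomal proteins had 9 higher and 10 lower of 76, with a median of 0.008 units. They were led by Rpl27 (0.236), Rpl14 (0.196) and Rpl39l (0.105), and by Rps25 (-0.142), Rpl4 (-0.129) and Rpl22 (-0.114). The median of the mitochondrial ribosomal genes, 0.018 units, lay between those of these 2 lists. The share called was 22.7% for the assembly factors and 13.3% for the genes of transcription and replication. These shares, and that of the cytosolic ribosomal proteins, also lay below the 38.1% of all probesets.

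The next comparison asked whether the large and small subunits moved together. Averaged over the members, the score of the CD arrays was 9.867 ± 0.057 (SD, n = 42) and that of the HFD arrays 9.887 ± 0.067 (SD, n = 37), and it was higher on HFD in 21 of 37 strains. The lowest and highest strains were BXD44 and BXD65 in CD and BXD80 and BXD69 in HFD. The difference between diets was below the spread between strains of one diet. The large subunit mean minus the small subunit mean came to 0.261 ± 0.036 (SD, n = 42) on CD arrays and to 0.259 ± 0.034 (SD, n = 37) on HFD arrays, and was higher on HFD in 17 of 37 strains. The mean of the large subunit genes followed that of the small subunit genes across arrays, with r = 0.84 in CD and 0.894 in HFD. These points share the array and its scaling, so r is given without a test. When Mrps30 and Mrps18a were counted with the large subunit, the diets differed by -0.009 units in place of -0.001, and with medians of members by 0.025 units, all below 1 SD.

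**Figure D3:**
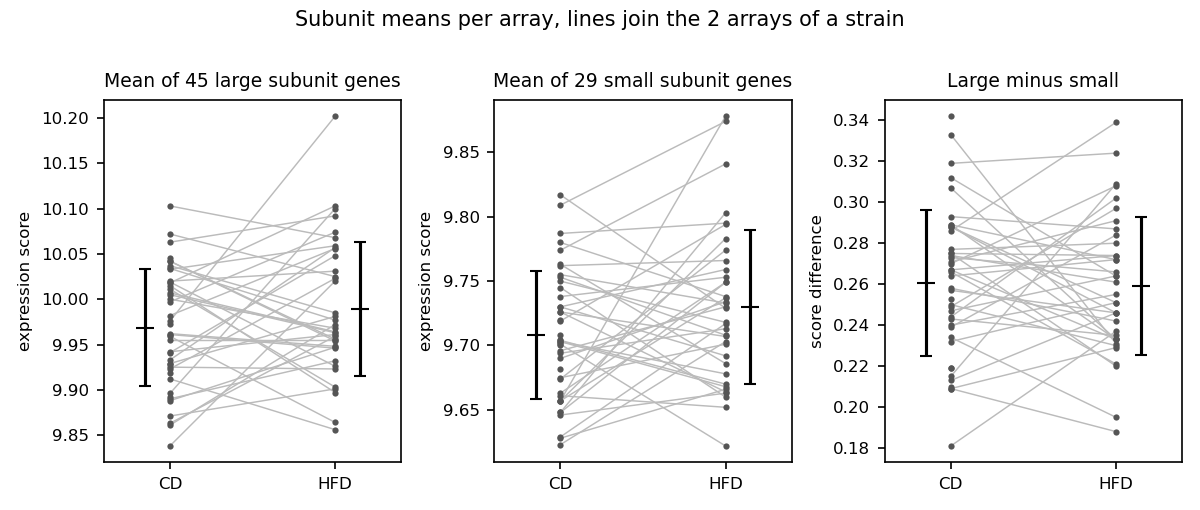
Mean score of the 45 large and 29 small subunit genes and their difference (y axes) on each array by diet, with lines joining the 2 arrays of a strain and the mean and SD beside the points. Lines go up and down in like numbers in each panel, and the difference lies between 0.181 and 0.342 on CD arrays.

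Strain differences were then examined in the 37 strains with an array on each diet, which act as the only repeat of a strain. A moderated F test in limma over the strains called 18 of 74 members (24.3%), beside 13.6% of all probesets. Among probesets above the median mean, fitted alone, the background was 30.4% and 25 members were called, so the share of members lay above the background of all probesets and close to that of brighter ones. The 18 were 13 large subunit genes (Mrpl12, Mrpl15, Mrpl19, Mrpl20, Mrpl22, Mrpl24, Mrpl30, Mrpl34, Mrpl35, Mrpl39, Mrpl49, Mrpl54, Mrpl55) and 5 small subunit genes (Mrps5, Mrps14, Mrps18a, Mrps23, Mrps26). Of these 18, 5 were also among the 24 called by diet, which were 32.4% of all members. No conclusion is drawn from this overlap. Over the alternatives of this test 13 to 25 members were called, beside 11.5% of all probesets after median centring, which called 13 members. The 6 genes with the smallest p, all of the large subunit, were called under each of the 7 alternatives.

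Mrpl35, the counterpart of a bacterial large subunit protein, had the largest strain difference (F = 22.04, limma adjusted p 7.18e-14), with an SD of 0.38 units between strains and a residual SD of 0.11 units. Its strains fell into 2 separate clusters, drawn from the mean of each strain's scores on the 2 diets. In the 9 low strains the score was 10.09 to 10.81 in CD and 10.20 to 10.73 in HFD, and in the 28 high strains it was 11.06 to 11.45 and 11.14 to 11.56. No array of a low strain overlapped with one of a high strain, on either diet. DBA/2J (10.81 in CD and 10.57 in HFD) was among the low strains with BXD43, BXD44, BXD49, BXD51, BXD55, BXD56, BXD63 and BXD83, and C57BL/6J (11.21 and 11.28) was among the high strains. Within the clusters, r between diets was 0.489 (rho 0.483, permutation p 0.181 and 0.191, n = 9) in the low strains and 0.053 (rho 0.146, permutation p 0.788 and 0.458, n = 28) in the high strains. Clusters drawn from the same scores tend to lower r inside them, so these values do not test whether strains kept their rank. The parental difference in the limma fit was 0.558 units (SE 0.112, adjusted p 0.00262).

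Mrpl20, whose bacterial counterpart acts early in assembly of the large subunit, was next (F = 9.44, limma adjusted p 1.89e-08, SD between strains 0.35 units). Its score ran from 8.69 to 10.08 (median 9.41) in CD and from 8.78 to 9.97 (median 9.40) in HFD. Both diets spanned the same wide range, and strains kept their place. Between diets r was 0.808 and rho 0.795 (n = 37, permutation p 1e-05 each, the smallest that 100000 draws can give, adjusted p 0.000427 and 0.000509). Here and below, r and the F test rest on the same 2 arrays of a strain, so r is no separate support. Leaving out the 2 strains farthest from the CD median gave r = 0.784, and r was 0.934, 0.621 and 0.741 for strains with both arrays in batch 1, both in batch 2 or in different batches. The parents lay far apart, C57BL/6J at 9.07 and 8.86 and DBA/2J at 9.93 and 9.95 in CD and HFD, and differed by -0.974 units (SE 0.158, limma adjusted p 0.000129). A total of 6 strain means lay below that of C57BL/6J. The lowest was that of BXD96 (8.73) and the highest of all was that of DBA/2J (9.94). Mrpl35 and Mrpl20 thus differed between the parents in opposite directions. They were the only 2 of the 74 members called between the parents (2.7%), beside 1.26% of all probesets. They remained the 2 called in each of the 6 alternatives of that fit. With probesets below the median mean left out, 470 of 17778 probesets were called, a share close to that of the members.

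Mrpl55, found only in mitochondria, also fell into 2 clusters (F = 5.34, limma adjusted p 3.07e-05). The 28 low strains, DBA/2J among them, ran from 9.82 to 10.14 in CD and from 9.68 to 10.20 in HFD, and the 9 high strains, C57BL/6J among them, from 10.20 to 10.38 and from 10.13 to 10.37. The clusters, again drawn from the mean of these scores, did not overlap on CD and overlapped slightly on HFD. BXD95, which had an array on CD only and was not clustered, lay between them at 10.16. Within the low strains r was 0.168 (rho 0.145, permutation p 0.391 and 0.459), and within the high strains it was -0.781 (rho -0.75, permutation p 0.0137 and 0.0244). Over the 4 such relations in Mrpl35 and Mrpl55 none passed, with the smallest adjusted p at 0.0548 for r and 0.0976 for rho. Since strains were split by the mean of the 2 scores, a negative r inside a cluster is not a result about strain rank.

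Mrpl34, Mrpl30 and Mrpl24, all with bacterial counterparts, followed (F = 3.33, 3.29 and 3.29, limma adjusted p 0.00349, 0.00393 and 0.00394). Mrpl30 ran from 10.20 to 10.90 (median 10.57) in CD and from 10.33 to 10.94 (median 10.57) in HFD, with r = 0.577 between diets (rho 0.631, permutation adjusted p 0.00433 and 0.00114, n = 37). Mrpl24 ran from 8.97 to 9.67 (median 9.41) and from 8.81 to 9.64 (median 9.30), with r = 0.548 (rho 0.501, permutation adjusted p 0.00781 and 0.0255, n = 37). In these genes the strains formed a continuous range. In Mrpl34 r was 0.554 (permutation adjusted p 0.00682, n = 37) but rho was 0.400 (adjusted p 0.106), and r dropped to 0.372 once the 2 strains with the most extreme CD scores were left out. Its highest strain was BXD63. Mrps5, named here outside the rule because its worm counterpart is known from lifespan work, had F = 2.41 (limma adjusted p 0.0365, not called in 1 of 7 alternatives) and no called diet difference (0.045 units, SE 0.030, adjusted p 0.251).

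**Figure D4:**
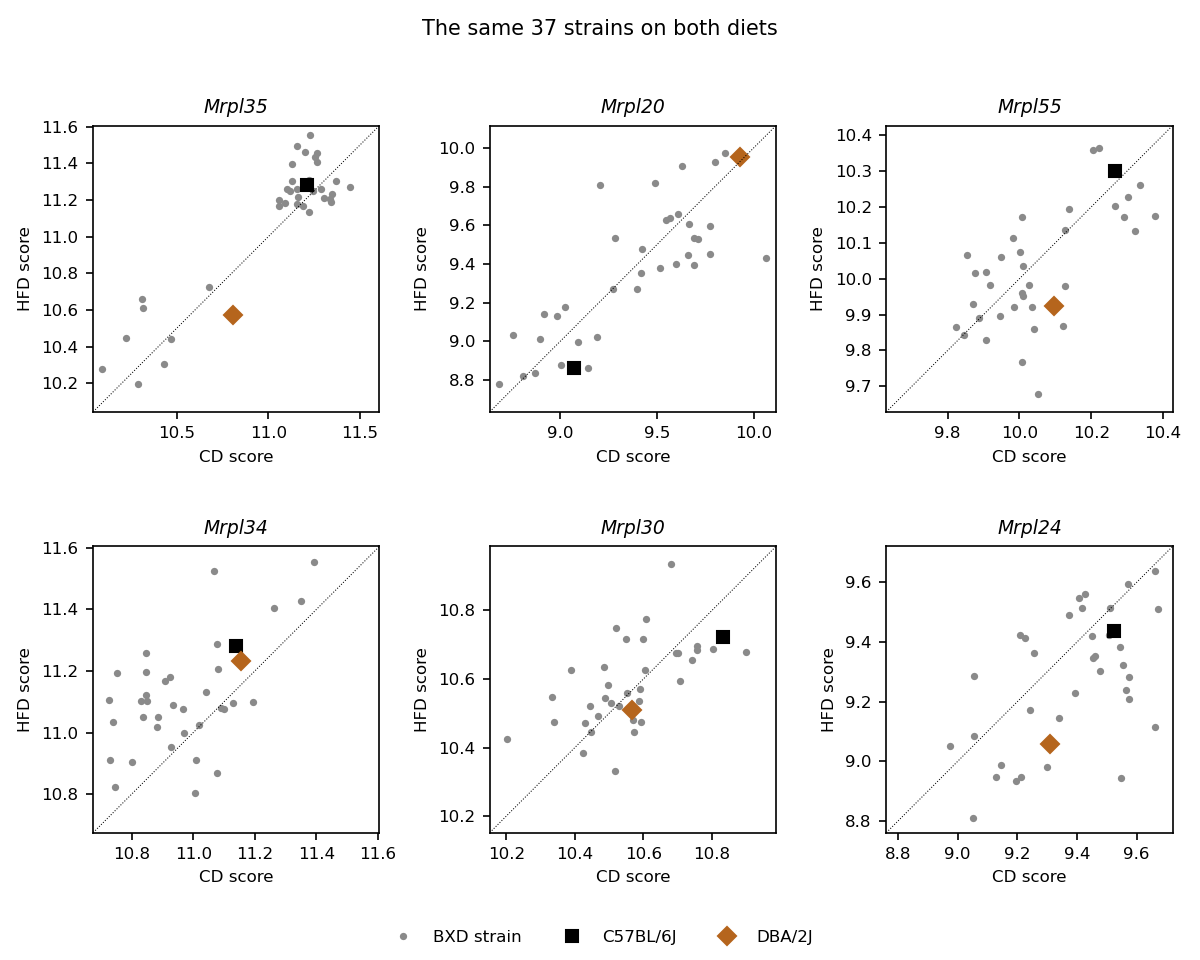
Score of each of 37 strains on CD (x axis) and HFD (y axis) for the 6 genes with the smallest strain p, with the parents marked and a dotted line of equal scores. Mrpl35 shows 9 low and 28 high strains, Mrpl20 spreads along the line from 8.686 to 10.065, and the other genes scatter more.

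The probesets whose strain means were most like those of these genes were looked up, and most belonged to genes of the same chromosome. For Mrpl35, on chromosome 6, they were Polr1a (r = 0.939, n = 37 strains), Ptcd3 (0.838) and Tmem150a (-0.768), which lie 3, 2 and 9 protein-coding genes away. Within the 28 high and 9 low strains r with Polr1a was 0.213 and -0.112 and with Ptcd3 0.545 and 0.283. These values were lower than over all strains. Ptcd3 is itself a mitochondrial ribosomal protein gene, and was called by strain (limma adjusted p 0.000346). For Mrpl20, on chromosome 4, they were Fam132a (now C1qtnf12, r = -0.705, 11 genes away), Mxra8 (0.703, 3 genes away) and the pseudogene Rps2-ps (-0.657). For Mrpl55, on chromosome 11, they were Zfp672 (0.867, 44 genes away), a probeset with no symbol (-0.859) and Sap30l (0.827, 56 genes away), and within its low and high strains r with Zfp672 was 0.522 and 0.634.

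Mrpl30, on chromosome 1, was most like Coa5 (0.767, 7 genes away), Txndc9 (-0.713, 3 genes away) and Pdcl3 (0.710, 11 genes away). Mrpl24, on chromosome 3, was most like Dap3 (0.861, 39 genes away), which encodes a GTP-binding protein of the small subunit, and 2 probesets of Rps3a (0.793 and 0.765, 21 genes away by symbol). The number of the second Rps3a probeset fell between those of members on chromosomes 14 and 15, so its identity is uncertain. Dap3 was called by strain (limma adjusted p 1.18e-07) and not by diet (0.001 units, adjusted p 0.986). Of the 8 ribosomal proteins named otherwise, 4 were called by strain: Dap3, Ptcd3, Gadd45gip1 (limma adjusted p 8.86e-12) and Mrp63 (0.00831). Mrpl34, on chromosome 8, stood apart, since its 3 probesets lay on other chromosomes: Kdm4b (-0.791, chromosome 17), Sh3kbp1 (0.706, chromosome X) and Pcolce (0.695, chromosome 5). These correlations share strains and were picked as the largest, so they carry no test. A difference in transcript level and a difference in the sequence under the probes cannot be told apart in these data.

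Over all members, the median r between diets was 0.261, from -0.19 to 0.912, and 71 of 74 were above 0. It was 0.14 over all probesets and 0.249 over genes above the median mean, so the members kept their strain order about as well as other genes of their level. The permutation test of r called 14 members (18.9%), beside 10.5% of all probesets, and that of rho called 9 (12.2%, beside 9.26% of all probesets). These counts include Mrpl35 and Mrpl55, whose strains form clusters. The median r differed between kinds of strain. It was 0.51 for the 12 strains whose arrays were both of batch 1, 0.22 in the 17 with both in batch 2 and 0.02 in the 8 with arrays in different batches. Over all probesets the same medians were 0.222, 0.151 and 0.089, and over genes above the median mean they were 0.407, 0.227 and 0.14. The difference between these kinds of strain was not tested.

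Within each diet the members rose and fell together from array to array, weakly on average. With 1 array per strain and diet, movement shared by strains and by arrays cannot be told apart. Between diets, the member mean of a strain gave r = 0.217 (n = 37). This r was 0.477 with both arrays in batch 1 (n = 12), 0.021 with both in batch 2 (n = 17) and 0.088 with different batches (n = 8). The mean correlation over the 2701 pairs of members was 0.142 in CD and 0.168 in HFD, beside 0.012 in both over all gene symbols. It was 0.189 and 0.142 over cytosolic ribosomal proteins and 0.247 and 0.188 over respiratory chain subunits. Pairs of large subunit genes averaged 0.166 and 0.20, pairs of small subunit genes 0.097 and 0.111, and mixed pairs 0.138 and 0.162. In both diets 1671 pairs were above 0, and 428 were below 0. The size depended on the scaling of arrays: it was 0.106 and 0.117 after quantile normalizing again, and 0.218 and 0.273 after median centring. It was positive in each batch alone (0.116 and 0.139 in batch 1, 0.178 and 0.209 in batch 2) and nearly as large without BXD63 (0.139 and 0.158). These correlations are descriptions, since the points of a diet share arrays and scaling.

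Mrps33, a small subunit protein found only in mitochondria, followed the others most closely, with a mean r of 0.285 in CD and 0.326 in HFD. The identity of its probeset is uncertain, as described below, and a second probeset behaved alike (r = 0.953 and 0.956 with the first). Next were Mrps7 (0.256 and 0.303), the counterpart of a bacterial protein of the small subunit head, Mrpl36 (0.273 and 0.284), a very short protein, and Mrpl18 (0.280 and 0.270). None of these 4 differed between diets by the test, with differences of 0.054, 0.047, -0.003 and 0.025 units (limma adjusted p 0.202, 0.194, 0.96 and 0.582). None was called by strain. At the other end, Mrps12 (-0.052 and -0.056) and Mrps16 (0.008 and -0.114) did not follow the rest. Mrps16 encodes a small subunit protein whose loss causes a human respiratory chain disease. The closest single pairs were Mrps17 with Mrps18b (r = 0.706 in CD and 0.857 in HFD) and with Mrps36 (0.745 and 0.791), and the most opposed was Mrps10 with Mrps30 (-0.425 and -0.536).

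**Figure D5:**
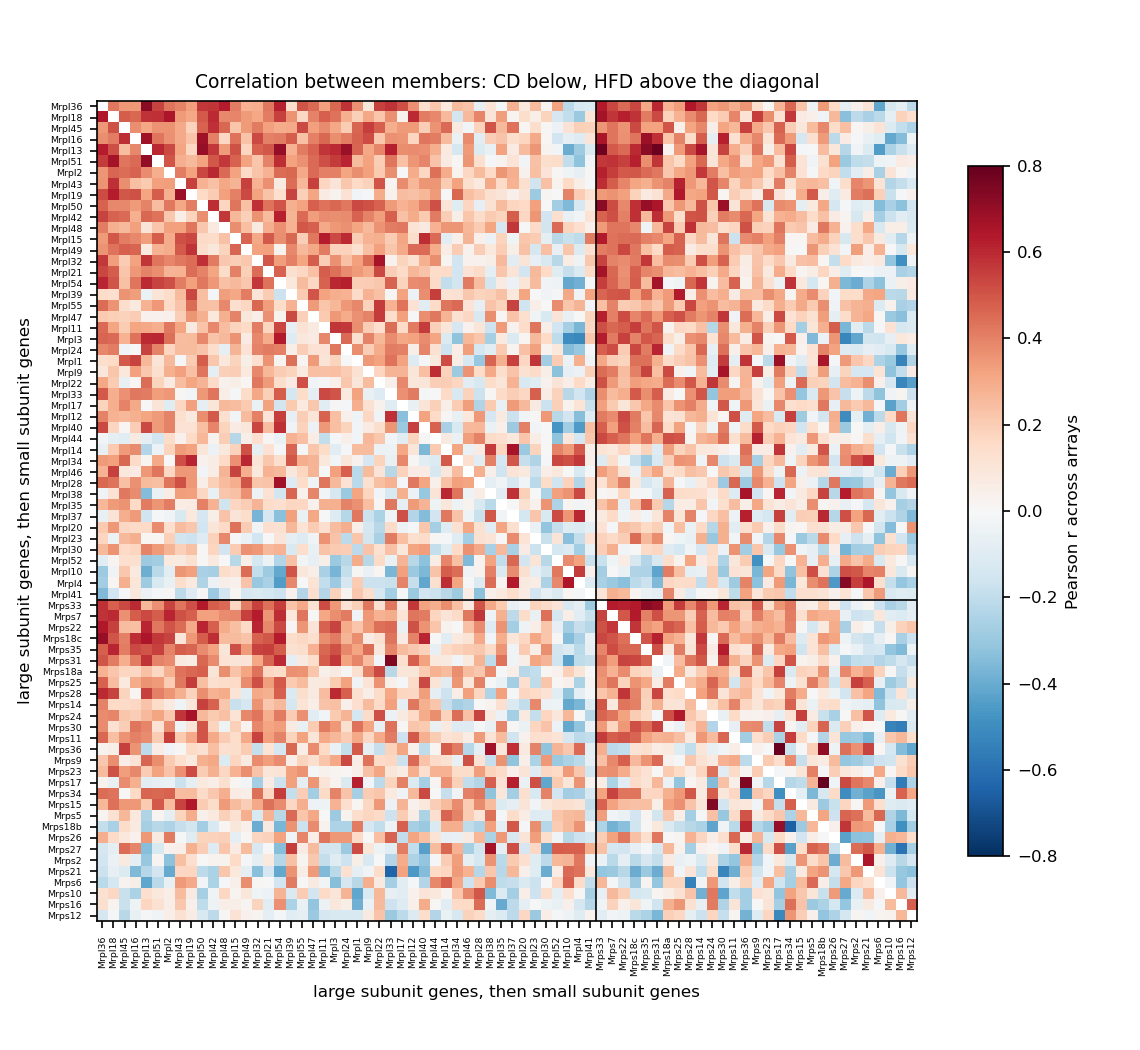
Pearson r across arrays between each pair of the 74 genes, CD below and HFD above the diagonal, ordered by subunit and then by mean r. Red (positive) cells prevail among the upper genes of both blocks, and the genes at the end of each block, such as Mrpl41, Mrps16 and Mrps12, are pale or blue.

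Other mitochondrial translation genes followed the mean of the members as well. The median r with the member mean was 0.448 in CD and 0.56 in HFD for the translation factors, 0.300 and 0.364 for the synthetases, 0.333 and 0.38 for the assembly factors and 0.382 and 0.252 for the respiratory chain subunits. The genes of mitochondrial DNA transcription and replication gave 0.337 in CD but only 0.105 in HFD. Each member against the mean of the other members gave a median of 0.399 and 0.484, while cytosolic ribosomal proteins gave 0.184 and 0.121. All gene symbols gave -0.037 and -0.067, and those above the median mean 0.055 and 0.046. Among the marker lists given here, the mean of the skeletal muscle list ran against the member mean (r = -0.358 in CD, n = 42, and -0.554 in HFD, n = 37). The adipocyte list gave -0.045 and 0.11, the macrophage list 0.159 and 0.269, the endothelial list 0.133 and 0.032, the fibroblast list 0.105 and -0.01 and the slow fibre list 0.112 and 0.186. The part of these cells in the correlation between members was not tested.

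The identity of a few probesets is uncertain. Probesets of this array are numbered largely in the order of chromosomes, with both numbered neighbours on the same chromosome for 85.3% of 21963 probesets. For 69 of the 74 members at least 8 of the 10 nearest numbered probesets belonged to genes of the member's chromosome. For Mrpl48, Mrpl51 and Mrps33 it was none of 10: the numbers of these probesets fell among those of chromosomes 4, 2 and 7, while the genes lie on chromosomes 7, 6 and 6. Such a probeset may read another copy of the sequence. A second probeset of each, numbered on the gene's chromosome, correlated with the first at r = 0.421 and 0.577 (Mrpl48), 0.622 and 0.473 (Mrpl51) and 0.953 and 0.956 (Mrps33) in CD and HFD. The diet difference of the second probeset was -0.079 units (limma adjusted p 0.0114) for Mrpl48, where that of the first was not called (-0.055 units, 0.0888). Of the 10 members with a second probeset, Mrps30 had probesets that ran against each other (r = -0.122 and -0.289). The diet difference of its second probeset was -0.102 units (limma adjusted p 0.00498), where that of the first was not called (-0.038 units, 0.487). With the mean of both probesets Mrps30 was called.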

How the data were processed

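The values were deposited by the authors as one table of expression scores from Affymetrix arrays of quadriceps RNA, 1 array per strain and diet from pooled animals. Per the submitters' processing notes Affymetrix Expression Console was used. In the deposited table the scores of each array average 8, with an SD of 2. The log base is not given in the sources used here, so differences are in score units and no folds are given. The analysis was planned for log-type values and kept. Gene symbols are those of the table. Array numbers limit the precision, and no read depth applies.

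Diet was tested in limma 3.58.1 (R 4.3.3) on all 35556 probesets with diet and batch as terms, over 42 CD and 37 HFD arrays, with Benjamini-Hochberg adjustment and a threshold of 0.05. Strain was tested by a moderated F test over the 37 strains with both diets, with diet and batch as terms, and the parents by a contrast in that fit. Correlation between diets used 100000 permutations after batch means were removed within diets. Strains were called clustered where Ashman's D exceeded 2 and a mixture of 2 components had a BIC lower by at least 10. The mixture was fitted to the mean of each strain's scores on the 2 diets. Arrays of a strain were paired by the strain name in the labels, and the fit with strain as a replicate block was an alternative. In the diet fits without a strain term, replicates are strains of a diet, so p-values measure the spread between strains. The strain F test, the parental contrast and the strain block hold strain as a term. Their p-values rest on what is left between the 2 arrays of a strain once the other terms are fitted.

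Named were the 8 called members with the largest diet difference in each direction, the 6 with the smallest strain p with the 3 probesets most like each, the 4 highest and 2 lowest in mean correlation, up to 3 called genes per direction of each further list, and every marker gene, except those of some marker lists, which are not reported here. Mrps5, Mrpl24, Mrpl35, Mrpl40 and genes gained or lost under alternatives were named after their values were seen. The members and lists were chosen with earlier results of these data known. The scripts were tested on simulated data. Alternatives were the batch term, each batch alone, the strain block, strains left out, the methods' t-test, limma-trend, median centring, quantile normalization, dim probesets left out and all probesets of a gene. Counting Mrps30 and Mrps18a with the large subunit was added after seeing the data. Promoter windows came from RefSeq (GRCm38.p6). The other tools were matplotlib 3.10.9, scikit-learn 1.9.0, numba 0.67.0, pandas 2.3.3, scipy 1.17.1 and numpy 2.4.6 under Python 3.11.15.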

Additional observations from a re-analysis of the deposited data

How the results depend on the processing

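Each batch alone gave fewer calls by diet. In batch 1 alone 3 members were called (2 large, 1 small subunit genes) and 4491 of all probesets, and in batch 2 alone 14 (10 large, 4 small) and 8691, in place of 24 (16 and 8) and 13551. With dim probesets left out, 5292 of 17778 probesets and 22 members were called. With strain as a replicate block, 29 members (39.2%) and 40.6% of all probesets were called. The methods' t-test called 35 members before adjustment and 24 after Benjamini-Hochberg adjustment. The differences of the 16 members named for their diet calls kept their direction under every alternative run. Of their 192 values under alternatives, 161 kept the call and 31 did not. Between diets, rho called 9 members by strain in place of the 14 called by r, and Mrpl34 was not among the 9. The median r between diets was 0.51 with both arrays in batch 1 and 0.02 with arrays in different batches, in place of 0.261. The mean r between members on HFD was 0.273 after median centring in place of 0.168. The 6 named strain differences stayed called under the 7 alternatives of the F test, and the 2 parental differences under the 6 of the parental contrast. Without BXD63, 15 members (20.3%, beside 13.5% of all probesets) were called by strain in place of 18. In strains with both arrays in one batch, 23 were called (31.1%, beside 14.6%), and there batch and strain cannot be told apart. The causes of these changes were not tested.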
